A study of Homo sapiens with 7 samples.

Results

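The peaks of 2 ChIP-seq lists were set against each other, those of the enzyme O-GlcNAcase (OGA) and those of its substrate, the O-GlcNAc mark. ChIP-seq, chromatin immunoprecipitation followed by sequencing, finds where a target sits along the DNA. Members were chosen by list and chromosome: 2503 OGA peaks and 8988 O-GlcNAc peaks on chromosomes 1 to 22, which is 11491 of the 132893 peaks in the 5 deposited lists of the series. All libraries came from BJAB, an established B-cell line from a Burkitt's lymphoma, taken at multiple passages and with no treatment named in the labels. The OGA library was made with an antibody to OGA (called NCOAT in the labels), the O-GlcNAc library with RL2, and the 3 lists used as further readouts with antibodies to RNA polymerase II (8WG16), SPT5 and TRIM28. Each target had 1 library and no replicate, so no test of a difference between conditions was possible. Intervals are 95% Wilson intervals for shares and 95% order-statistic intervals for medians, and both cover counting error over peaks only. Read depth is unknown for all of the lists, and the mouse and rabbit IgG libraries were not analysed here.

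O-GlcNAc is a single sugar that the enzyme OGT puts on serine or threonine residues of proteins inside the cell and that OGA takes off again. Many transcription factors, chromatin proteins and the repeats of the largest Pol II subunit can carry it, so a ChIP peak for the mark says that some modified protein was near that DNA and not which protein. A ChIP peak for OGA says where the enzyme was held on chromatin and not whether it was active. SPT5, part of the DSIF complex, takes part in Pol II pausing and elongation, and TRIM28 is a co-repressor that is also counted among the pausing factors. Sites with the enzyme and the mark, with the enzyme only and with the mark only are described in turn.

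Most OGA peaks lay apart from the mark, and nearly all O-GlcNAc peaks lay apart from the enzyme. An O-GlcNAc peak overlapped 604 of the 2503 OGA peaks by at least 1 bp (24.1%, interval 22.5% to 25.8%), and an OGA peak overlapped 604 of the 8988 O-GlcNAc peaks (6.72%, 6.22% to 7.26%). The overlaps made 611 pairs at 597 separate sites. At 583 of these pairs each peak had 1 partner, while 7 OGA peaks spanned 2 O-GlcNAc peaks and 7 O-GlcNAc peaks spanned 2 OGA peaks. That left 1899 OGA peaks with the enzyme only and 8384 O-GlcNAc peaks with the mark only. The O-GlcNAc list was 3.59 times as long as the OGA list, so the same number of overlaps was a smaller share of it. With the O-GlcNAc list shortened by −log10 p to the length of the OGA list, the mark lay at 10.5% of OGA peaks (9.33% to 11.7%) and the enzyme at 10.3% of O-GlcNAc peaks.

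Height was the authors' fold enrichment over a background whose source is unknown, and levels were compared only within a list. The median fold enrichment was 3.30 (3.16 to 3.37) for OGA peaks with both and 3.35 (3.30 to 3.40) for enzyme-only peaks. Without the highest 10% of OGA peaks the difference in medians was -0.26 (-0.38 to -0.11, from the bounds of both medians), with the peaks with both the lower. Among OGA peaks with Pol II the sign turned, to 0.20 (0.03 to 0.38), with the peaks with both the higher. The upper ends of the distributions were far apart. The 90th percentile was 9.94 for OGA peaks with both and 5.09 for enzyme-only peaks. OGA peaks with both were also wider, with a median of 260 bp (246 to 273 bp) and a 90th percentile of 659 bp, against a median of 231 bp (228 to 235 bp) and a 90th percentile of 367 bp for enzyme-only peaks. This difference of 29 bp was 7 bp (-5 to 17 bp) without the highest 10% of OGA peaks, an interval that holds 0. In the O-GlcNAc list, peaks with both had a median fold enrichment of 4.14 (3.93 to 4.27), against 3.86 (3.82 to 3.90) for mark-only peaks. The direction of either small difference in median height depended on the setting. For OGA it also turned with −log10 p as height, where the median −log10 p with both was 1.09 higher. For O-GlcNAc it turned with that list shortened to the length of the OGA list, where the difference in fold enrichment was -0.47. Width separated the O-GlcNAc classes further, at a median of 471.5 bp (451 to 484 bp) with both and 366 bp (361 to 371 bp) with the mark only. The overlap rule favours wide peaks in either list, which by itself can make the peaks with both the wider.

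Across deciles of the OGA list by fold enrichment, 10 bins of equal size by rank, the share with the mark was lower toward the ninth decile and highest at the top. It was 29.5% (24.2% to 35.4%) in the lowest decile, 20.3% (15.8% to 25.7%) in the fifth and 14.4% (10.6% to 19.3%) in both the eighth and the ninth. In the highest decile it was 47.0% (40.9% to 53.2%, 118 of 251 peaks). The lowest peak inside that decile had a fold enrichment of 5.489 and the highest outside had 5.486, and in the O-GlcNAc list these values were 6.843 and 6.842. With −log10 p as height the ninth decile was not low. The share was then 25.5% in the lowest decile, 14.4% in the eighth, 24.4% (19.5% to 30.1%) in the ninth and 56.2% (50.0% to 62.2%) in the highest. Across deciles by width the share ran flat, between 16.0% and 23.6% from the narrowest to the ninth, and stood at 59.0% (52.8% to 64.9%) in the widest decile of 419 to 1671 bp. The O-GlcNAc list showed no such step. Its share with the enzyme lay between 4.90% and 8.01% over deciles by fold enrichment, and went with width from 3.00% (2.07% to 4.33%) in the narrowest decile to 13.2% (11.2% to 15.6%) in the widest. By −log10 p it went from 3.11% (2.16% to 4.46%) in the lowest decile to 11.3% (9.44% to 13.6%) in the highest.

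**Figure D1:**
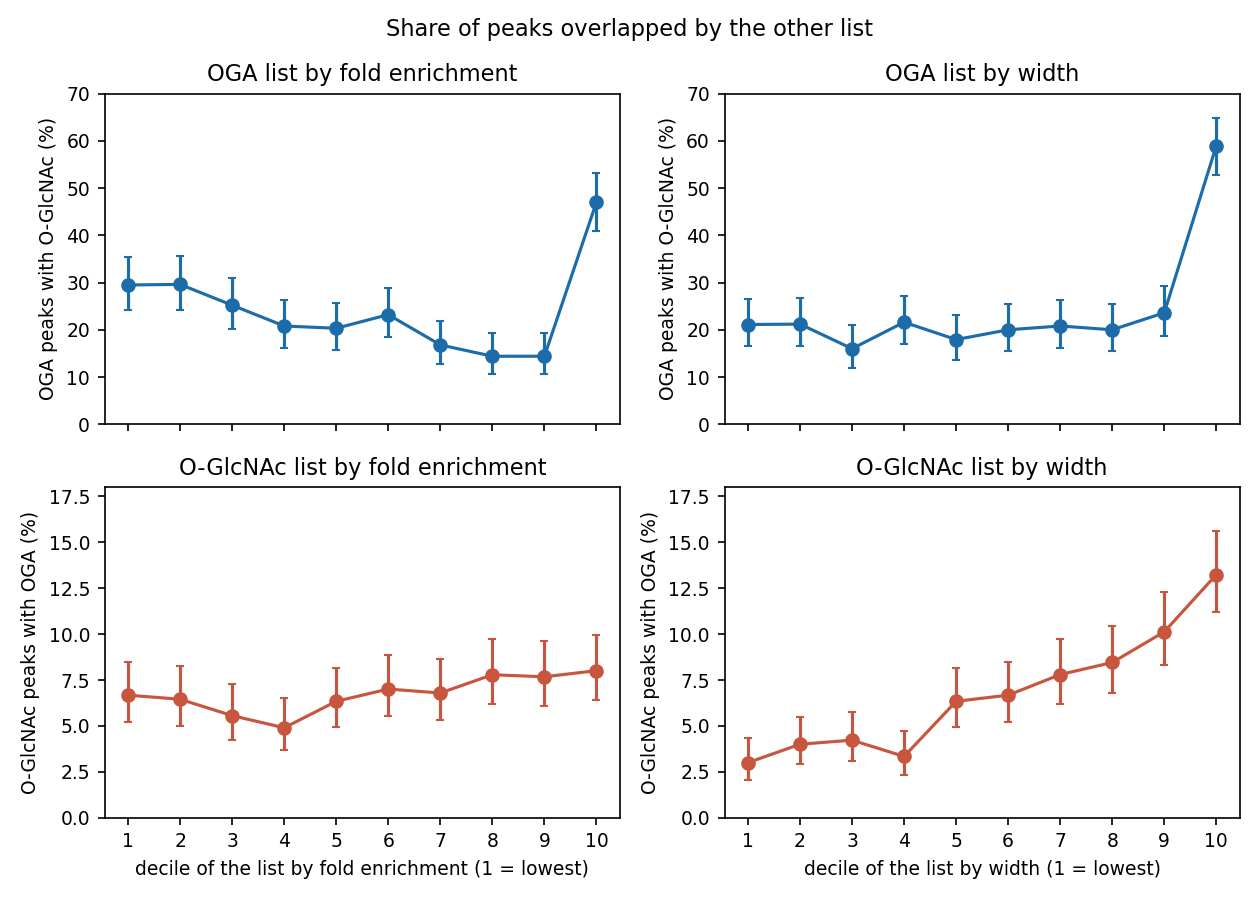
Share of OGA peaks overlapped by an O-GlcNAc peak (top, blue) and of O-GlcNAc peaks overlapped by an OGA peak (bottom, red) in deciles of each list by fold enrichment (left) or width (right); bars are 95% Wilson intervals and the vertical scales of the rows differ. The OGA share stood at 47.0% in the highest and 59.0% in the widest decile, and the O-GlcNAc share went from 3.00% to 13.2% with width. Wider peaks have more room to be overlapped.

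Within the highest decile of OGA peaks, width separated those with the mark from those without. The decile was divided at its own median width of 427 bp. Of the 125 wider peaks, 101 carried the mark (80.8%, 73.0% to 86.7%), against 17 of the 126 others (13.5%, 8.60% to 20.5%). Their fold enrichment was also higher, at a median of 10.3 in the wider peaks and 6.24 in the others. They lay at Pol II more often, since 96 of the 125 were overlapped by a Pol II peak (76.8%), against 27 of the 126 (21.4%). Of those 96 high, wide OGA peaks with Pol II, 90 also had O-GlcNAc (93.8%), and of the 29 without Pol II 11 had it (37.9%). Outside the highest decile wider and narrower peaks had the mark at 23.3% (20.9% to 25.9%) and 19.9% (17.6% to 22.3%). Going down the list by height gave the same picture: 8 of the 10 highest OGA peaks, 38 of the 50 highest and 74 of the 100 highest overlapped the mark, but only 117 of the 250 highest. From the side of the mark, 5 of the 25 highest O-GlcNAc peaks (8.86% to 39.1%) and 8 of the 50 highest (8.34% to 28.5%) overlapped OGA, beside 6.72% of the whole list. That list includes these peaks. Of the 10 highest, 2 did (5.67% to 51.0%), of the 100 highest 9 (4.81% to 16.2%) and of the 250 highest 19 (4.92% to 11.6%). The intervals for the 10, 100 and 250 highest hold 6.72%, and those for the 25 and 50 highest lie above it. The division at the highest decile and at the median width was chosen after the values were seen. Wider peaks also have more room for an overlap, and this was not separated from the other differences.

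Where both peaks were present, their heights ranked alike only weakly. Over the 604 OGA peaks with both, each set beside the O-GlcNAc peak that overlapped it most, Spearman's coefficient of the fold enrichments was 0.24 and Pearson's coefficient on the log2 scale was 0.26. Without pairs in the highest 10% of either list the Spearman coefficient was 0.08 over 437 pairs, so little of the relation was left in them. Leaving out pairs by height narrows the range of heights, which by itself lowers a coefficient. The points are sites of the same 2 libraries, so the coefficients are given as a description. With −log10 p as height the Spearman coefficient was 0.22, and for the widths of paired peaks it was 0.18. Within the 118 pairs whose OGA peak was in its highest decile the coefficient of the fold enrichments was 0.15, and within the other 486 pairs it was 0.13. Both were lower than over all pairs, which a division by OGA height can bring about by itself. With −log10 p as height they were 0.28 and 0.14, so the first was then higher than over all pairs. At the 59 pairs without Pol II the coefficient of the fold enrichments was 0.36, against 0.23 at the 545 with it. With −log10 p as height that order turned, at 0.14 and 0.25. At the 62 pairs without TRIM28 the coefficient was 0.42, against 0.20 at the 542 with it, and with −log10 p as height 0.29 and 0.22. The median O-GlcNAc fold enrichment was 4.92 in the pairs with a high OGA peak and 3.95 in the others. Among these pairs O-GlcNAc height ran weakly against Pol II height, and OGA height had almost no rank relation to it. Each height was set beside the factor peak that overlapped that same peak, so the pairs used for OGA and for O-GlcNAc differ somewhat. The coefficient with Pol II fold enrichment was -0.01 for OGA (545 pairs) and -0.21 for O-GlcNAc (557 pairs). That with TRIM28 was -0.01 for OGA (542 pairs) and -0.03 for O-GlcNAc (543 pairs).

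**Figure D2:**
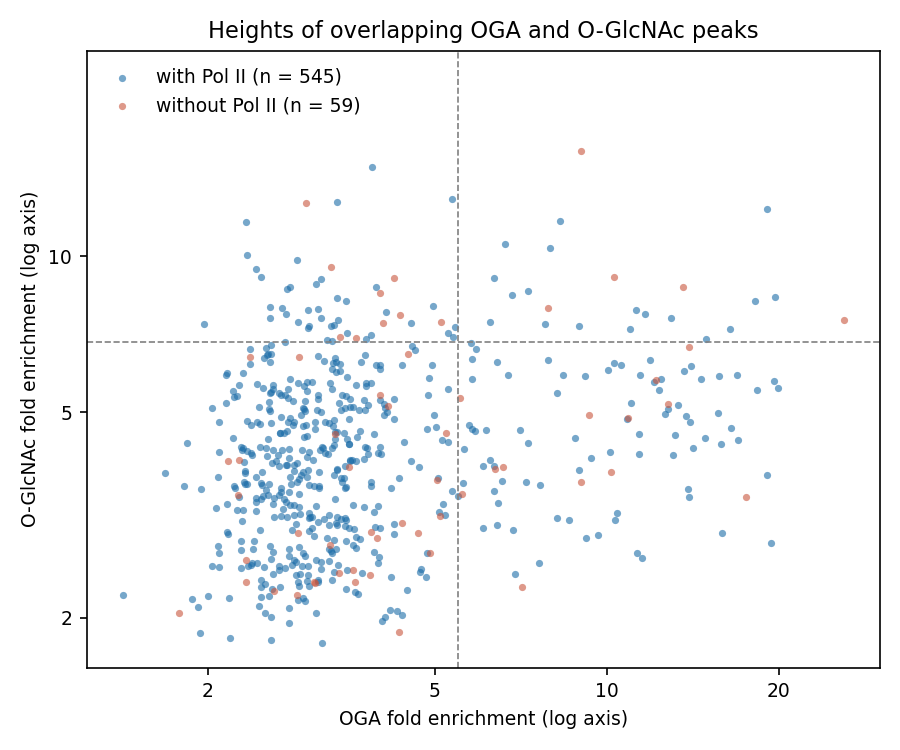
Fold enrichment of each of the 604 OGA peaks with O-GlcNAc (horizontal, log axis) against that of its O-GlcNAc partner (vertical, log axis); blue points lay at a Pol II peak and red points did not, and dashed lines mark the start of the highest decile of each list. The cloud is broad, with a Spearman coefficient of 0.24, and 118 points lie to the right of the OGA line.

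The extremes of this scatter lay in both directions. At chromosome 4, 5994462 to 5994763 (hg19, as all coordinates here), the OGA peak ranked 125th of its list with a fold enrichment of 7.10, while the O-GlcNAc peak beneath it had 2.30 and ranked 8388th. At chromosome 15, 89787024 to 89787624, fold enrichments of 6.92 for OGA and 2.43 for O-GlcNAc put the 2 peaks at ranks 128 and 8110. The third such site, on chromosome 2 at 16901948 to 16902317, had OGA at 11.5 and O-GlcNAc at 2.61. The reverse held at chromosome 12, 48499985 to 48500181, where an OGA peak of 2.33 (rank 2317) lay in an O-GlcNAc peak of 11.7 (rank 47). An OGA peak of 1.97 (rank 2476) on chromosome 14, 21979424 to 21979694, lay in an O-GlcNAc peak of 7.40 (rank 639). The OGA peak on chromosome 1 at 36929893 to 36930072 had 2.35 within an O-GlcNAc peak of 10.1. The summits of these 6 pairs were 13 to 89 bp apart.

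Summits of the enzyme and the mark lay a median of 69.5 bp apart (61 to 78 bp) over the 604 pairs. They were within 25 bp of each other at 161 pairs (26.7%), within 100 bp at 388 (64.2%) and within 250 bp at 550 (91.1%), and the largest distance was 621 bp. The OGA peak was wider than its partner at 150 of the 604 pairs. In all, 285 OGA peaks (47.2%) were wholly contained in the O-GlcNAc peak, while 81 O-GlcNAc peaks (13.4%) were wholly contained in the OGA peak. The median OGA peak had 97.6% of its length covered by its partner, and the median O-GlcNAc peak 52.8%. High OGA peaks turned this round. With OGA in its highest decile, the OGA peak was the wider at 85 of 118 pairs, against 65 of the other 486. Summits were also closer there, at a median of 47.5 bp (34 to 64 bp), against 77 bp (67 to 87 bp) for the other pairs. At the 59 pairs without Pol II the median distance was 35 bp (19 to 54 bp), against 73 bp (65 to 81 bp) at the 545 with it. The mark's summit lay at the higher coordinate at 308 pairs and at the lower at 294, so neither direction along the chromosome was favoured, and strand was not used.

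Enzyme and mark mostly lay on the same side of the Pol II summit. At the 545 pairs where a Pol II peak overlapped the OGA peak, their summits were on the same side of it at 468 (85.9%, 82.7% to 88.5%) and on opposite sides at 76. The enzyme stood a median of 159 bp (145 to 175 bp) and the mark 169 bp (161 to 181 bp) from the Pol II summit. The Spearman coefficient between their signed offsets was 0.81 over these 545 sites. Both offsets are measured from the same Pol II summit and overlap was required, which by itself brings them together. For high OGA peaks the same-side share was 96.0% (96 of 100), and for the rest 83.6% (372 of 445). Of the 3 factors, TRIM28 had the summit nearest to both, at a median of 51 bp (46 to 59 bp) from OGA and 85 bp (72 to 96 bp) from the mark over 542 pairs. TRIM28 peaks were also the narrowest of the 3 there, which by itself can shorten these distances (median width: TRIM28 504 bp, Pol II 762 bp, SPT5 1196 bp). OGA was nearer to TRIM28 than the mark was at 327 of the 542 pairs, and the mark was nearer at 213. Relative to SPT5 the distances were 148 bp for OGA and 151.5 bp for the mark over 578 pairs, with OGA the nearer at 304 and the mark at 272. Each factor peak was chosen by its overlap with the OGA peak and did not have to reach the mark. That choice can by itself make OGA the nearer, so no preference is read from these counts. With OGA in its highest decile, OGA was nearer to TRIM28 at 50 pairs and the mark at 41. For SPT5 these counts were 42 and 62.

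**Figure D3:**
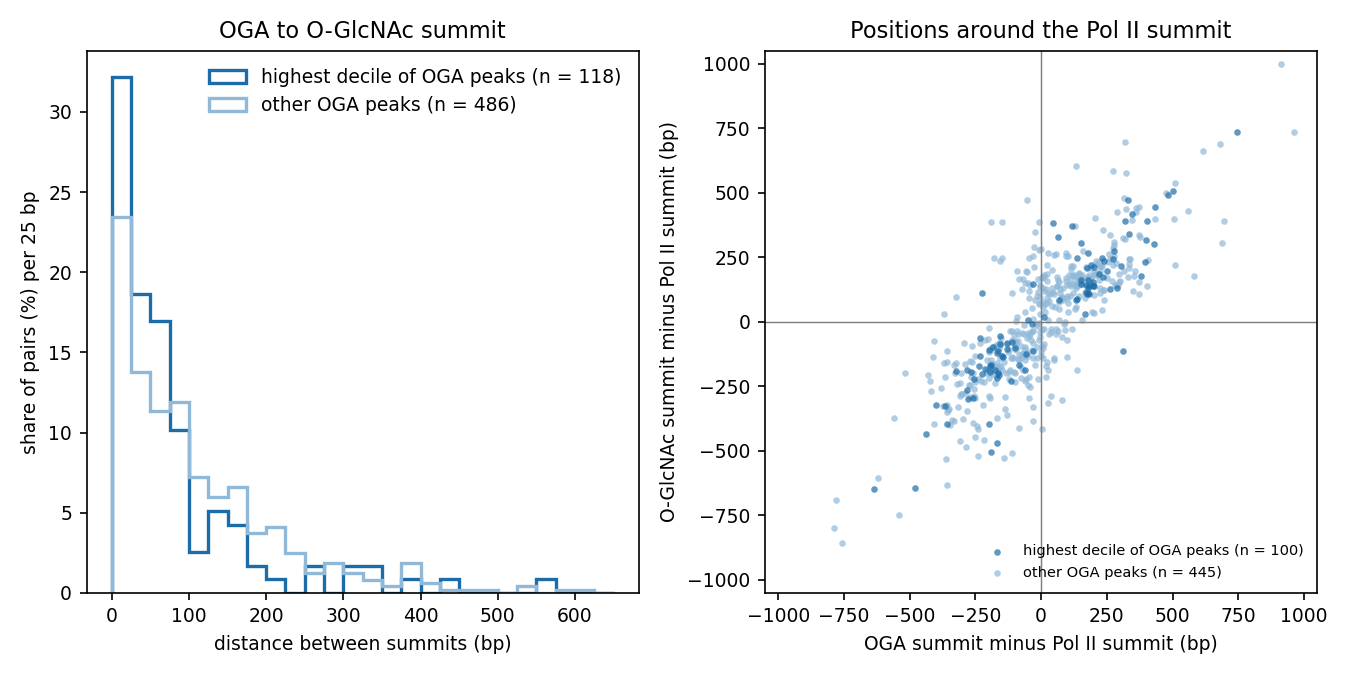
Left, distance between the summits of paired OGA and O-GlcNAc peaks in bins of 25 bp, as a share of the 118 pairs with OGA in its highest decile (dark) and of the other 486 (light). Right, offset of the O-GlcNAc summit against that of the OGA summit from the Pol II summit at the 545 pairs with Pol II; 468 lie in the 2 quadrants where both are on the same side.

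OGA peaks with and without the mark differed most by Pol II among the 3 other targets. Pol II peaks overlapped 46.5% of all 2503 OGA peaks, but 545 of the 604 with both (90.2%, 87.6% to 92.4%) and 620 of the 1899 with the enzyme only (32.6%, 30.6% to 34.8%). Pol II also lay at 81.2% of all O-GlcNAc peaks, so a high share is not particular to marks with the enzyme. SPT5, at 72.3% of all OGA peaks, was present at 578 with both (95.7%, 93.8% to 97.0%) and 1232 with the enzyme only (64.9%, 62.7% to 67.0%). TRIM28 was about as frequent in either class: it lay at 90.3% of all OGA peaks, at 542 with both (89.7%, 87.1% to 91.9%) and at 1717 with the enzyme only (90.4%, 89.0% to 91.7%). Restricted to peaks whose −log10 q reached 5, TRIM28 stood at 74.4% with both and 82.9% with the enzyme only. Read in the other direction, 46.8% of the 1165 OGA peaks with Pol II carried the mark (43.9% to 49.7%), against 4.41% of the 1338 without Pol II (3.43% to 5.65%). Combinations with both Pol II and SPT5 had the highest shares. With Pol II and SPT5 but no TRIM28 the mark was at 38 of 64 OGA peaks (59.4%), and with all 3 at 506 of 1090 (46.4%). With TRIM28 alone it was at 9 of 549 (1.64%), and with SPT5 and TRIM28 but no Pol II at 26 of 609 (4.27%). Small combinations departed from the split by Pol II: the mark was at 1 of 11 OGA peaks with Pol II and TRIM28 only (9.09%), at 8 of 47 with SPT5 alone (17.0%) and at 16 of 133 with none of the 3.

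O-GlcNAc peaks with and without the enzyme differed most by TRIM28. TRIM28 peaks overlapped 60.4% of all 8988 O-GlcNAc peaks, but 541 of the 604 with both (89.6%, 86.9% to 91.8%) and 4884 of the 8384 with the mark only (58.3%, 57.2% to 59.3%). The share with both was close to the 90.3% of all OGA peaks that lay at TRIM28, so it is not particular to OGA peaks with the mark. Pol II was common in either class, at 81.2% of all O-GlcNAc peaks, 556 with both (92.1%, 89.6% to 94.0%) and 6742 with the mark only (80.4%, 79.6% to 81.3%). SPT5 lay at 88.4% of all O-GlcNAc peaks, 579 with both (95.9%, 94.0% to 97.2%) and 7368 with the mark only (87.9%, 87.2% to 88.6%). OGA was present at 9.97% of the 5425 O-GlcNAc peaks with TRIM28 (9.20% to 10.8%), against 1.77% of the 3563 without (1.38% to 2.26%). OGA was more frequent at marks with TRIM28 whether or not Pol II was there. It lay at 9.94% of O-GlcNAc peaks with Pol II, SPT5 and TRIM28 and at 1.97% of those with Pol II and SPT5 only, and at 10.3% of those with SPT5 and TRIM28 and no Pol II and 1.05% of those with SPT5 only. None of the 3 other targets was present at 16 of the 604 OGA peaks with both (2.65%), against 117 enzyme-only peaks (6.16%). Among O-GlcNAc peaks the same numbers were 16 with both (2.65%) and 928 with the mark only (11.1%).

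**Figure D4:**
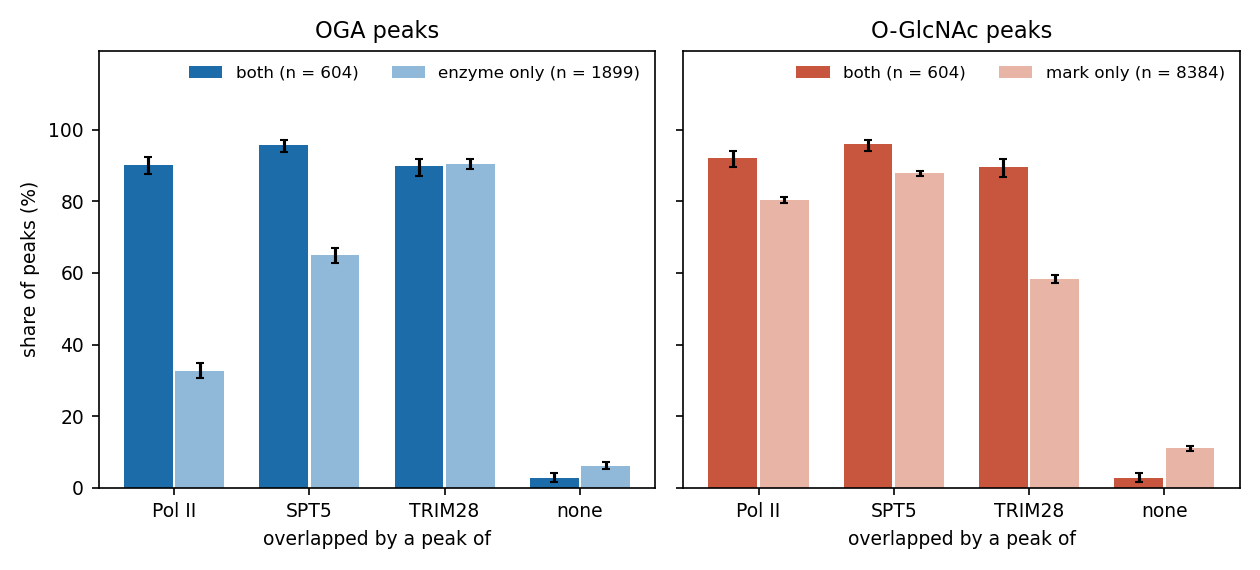
Share of OGA peaks (left) and of O-GlcNAc peaks (right) overlapped by a peak of Pol II, SPT5, TRIM28 or none of these, for sites with both (dark) and with the enzyme or the mark only (light); bars are 95% Wilson intervals. OGA peaks differ by Pol II, 90.2% with both against 32.6% with the enzyme only, and O-GlcNAc peaks by TRIM28, 89.6% with both against 58.3% with the mark only. Pol II lay at 81.2% of all O-GlcNAc peaks and TRIM28 at 90.3% of all OGA peaks.

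The heights of these 3 targets differed between the classes as well. Where Pol II overlapped OGA, its median fold enrichment was 7.34 (7.10 to 7.54) at sites with both and 4.51 (4.16 to 4.79) at enzyme-only sites. SPT5 stood at 9.13 (8.90 to 9.41) with both and 3.88 (3.69 to 4.10) with the enzyme only, whereas TRIM28 stood at 3.31 (3.20 to 3.45) with both and 3.92 (3.84 to 3.98) with the enzyme only. Within the 1165 OGA peaks at Pol II, the share with the mark was 9.44% (6.32% to 13.9%) in the lowest quintile by Pol II height (5 bins of equal size by rank), 37.3% in the second, 55.4% in the third, 69.1% (62.9% to 74.7%) in the fourth and 62.7% (56.3% to 68.6%) in the highest. At O-GlcNAc peaks, Pol II stood at 7.31 (7.05 to 7.48) with both and 6.63 (6.56 to 6.70) with the mark only, and TRIM28 at 3.31 (3.20 to 3.44) with both and 2.90 (2.88 to 2.93) with the mark only. Over quintiles of Pol II height the mark list covered a narrower range. The share of O-GlcNAc peaks with OGA went from 5.34% (4.30% to 6.62%) in the lowest quintile by Pol II height to 9.73% (8.31% to 11.4%) in the highest.

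TRIM28 height ran in opposite directions in the 2 lists. Among OGA peaks at TRIM28, the share with the mark was 36.1% (31.8% to 40.6%) in the lowest quintile by TRIM28 height and 10.4% (7.91% to 13.6%) in the highest. Restricted to OGA peaks that also had Pol II, it was 57.9% (51.3% to 64.2%) in the lowest quintile and 32.3% (26.4% to 38.7%) in the highest. Among O-GlcNAc peaks at TRIM28, the share with OGA was 5.35% (4.16% to 6.85%) in the lowest quintile and 19.2% (16.9% to 21.6%) in the highest. With Pol II required, those shares were 5.24% (4.04% to 6.77%) and 19.8% (17.5% to 22.3%). Without Pol II, the O-GlcNAc shares were 7.27% (2.86% to 17.3%) and 12.7% (6.30% to 24.0%), with overlapping intervals, and the OGA shares 7.33% and 1.72%. Quintiles were formed within each list, so the highest began at a TRIM28 fold enrichment of 4.95 for OGA peaks and 3.62 for O-GlcNAc peaks. Among marks with Pol II, a TRIM28 peak high for that list went with the enzyme. Where the enzyme was the starting point, a TRIM28 peak high for that list went with the absence of the mark.

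Enzyme-only OGA peaks were seldom just beside a mark. The nearest O-GlcNAc peak lay a median of 67.5 kb away (60.5 to 73.1 kb), within 1 kb for 47 of the 1899 (2.47%) and within 10 kb for 260 (13.7%, 12.2% to 15.3%). Enzyme-only peaks with Pol II were closer to a mark, at a median of 40.8 kb (36.3 to 45.9 kb), than those without Pol II, at 83.2 kb (74.1 to 93.0 kb). The mark-only peaks lay a median of 239 kb (229 to 248 kb) from the nearest OGA peak, with 359 of 8384 (4.28%, 3.87% to 4.74%) within 10 kb. Since the O-GlcNAc list is the longer, these distances are not compared with each other. Of the 620 enzyme-only OGA peaks at Pol II, 35 (5.65%) lay under a Pol II peak that also carried an O-GlcNAc peak elsewhere along it, with a median gap of 309 bp. Of the 6742 mark-only peaks at Pol II, 54 (0.801%) shared their Pol II peak with an OGA peak. Sites with both were sparse along the genome. The next OGA peak with the mark on the same chromosome lay a median of 536 kb away, against 161 kb between enzyme-only peaks and 44.1 kb between mark-only peaks, in the order of the numbers of peaks.

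**Figure D5:**
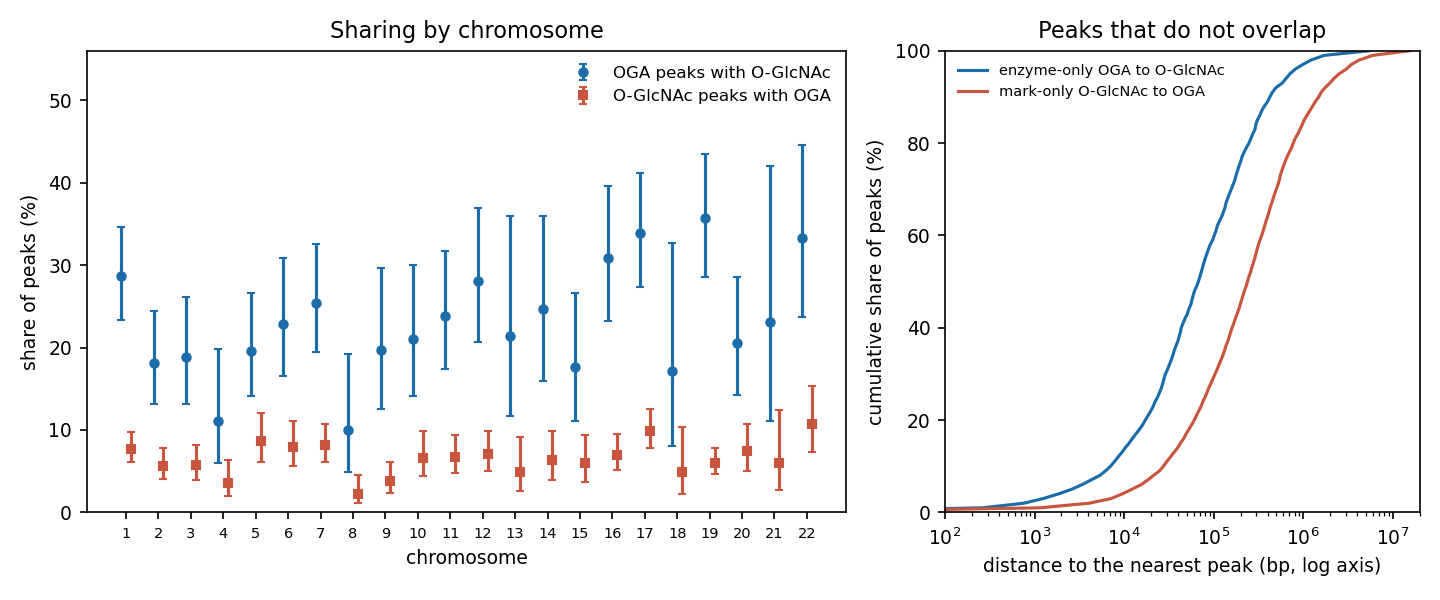
Left, share of OGA peaks with O-GlcNAc (blue) and of O-GlcNAc peaks with OGA (red) on each of chromosomes 1 to 22, with 95% Wilson intervals. Right, cumulative share of enzyme-only OGA peaks (blue) and mark-only O-GlcNAc peaks (red) by distance to the nearest peak of the other list (log axis), with medians of 67.5 kb and 239 kb.

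By chromosome, OGA peaks overlapped O-GlcNAc peaks most often on chromosomes 19, 17 and 22. The share of OGA peaks with O-GlcNAc was 35.7% on chromosome 19 (56 of 157, 28.6% to 43.4%), 33.9% on chromosome 17 (60 of 177, 27.3% to 41.1%) and 33.3% on chromosome 22 (25 of 75, 23.7% to 44.6%). It was 10.0% on chromosome 8 (7 of 70, 4.93% to 19.2%) and 11.1% on chromosome 4 (9 of 81, 5.96% to 19.8%). Chromosomes 19 and 17 held 9.27% and 9.93% of the OGA peaks with both, against 5.32% and 6.16% of the enzyme-only peaks. Over the 22 chromosomes, which share the same libraries, the share of OGA peaks with the mark had a Spearman coefficient of 0.84 with the share at Pol II. With the number of O-GlcNAc peaks per OGA peak the coefficient was 0.18. Of the 604 OGA peaks with both, 545 lay at Pol II, so the shares behind the 0.84 count partly the same peaks. That by itself raises the coefficient. Among OGA peaks at Pol II the share with the mark still ran from 26.9% on chromosome 4 to 57.4% on chromosome 17. Chromosome 19 stood apart in the mark list. It held 912 O-GlcNAc peaks, 5.81 for each OGA peak and the highest such ratio, but the share of them with OGA was 6.03% (4.66% to 7.77%), close to the 6.72% of the whole list. On chromosome 22 that share was 10.7% (7.37% to 15.4%) and on chromosome 8 it was 2.25% (1.09% to 4.57%).

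The 5 highest OGA peaks with the mark differed in what lay beneath them. The first, near the start of chromosome 17 (65422 to 66250), had a fold enrichment of 26.0, and its O-GlcNAc peak had 7.53 with a summit 7 bp away, yet no peak of Pol II, SPT5 or TRIM28 overlapped it. The other 4 lay at peaks of all 3 factors, as did 83.8% of all OGA peaks with both. The site on chromosome 17 at 1359319 to 1359910 combined OGA at 19.7 with O-GlcNAc at 8.36 and a summit distance of 8 bp. The site on chromosome 11 at 45376591 to 45377241 had OGA at 19.6, O-GlcNAc at 5.74 and summits 47 bp apart. On chromosome 19, the peak at 41869838 to 41870643 had OGA at 20.0 but O-GlcNAc at 5.56 with its summit 426 bp away, and the peak at 49954647 to 49955524 had OGA at 19.4 over an O-GlcNAc peak of 2.79 that ranked 7223rd. Enzyme height at the top of the list was thus met by marks from high to low.

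By the mean of both ranks, the leading site was on chromosome 19 at 15560536 to 15561122. OGA had a fold enrichment of 19.1 there (rank 8) and O-GlcNAc 12.3 (rank 30), with summits 14 bp apart, at peaks of Pol II and TRIM28 but not SPT5. The second, on chromosome 1 at 177953335 to 177953647, had O-GlcNAc at 16.0, the highest of all marks with the enzyme (rank 5), and OGA at 9.01, with summits 13 bp apart and no peak of another target. Next by mean rank, after the chromosome 17 site at 1359319, came chromosome 16, 2955260 to 2956045 (OGA 8.28, O-GlcNAc 11.7), and chromosome 10, 74870055 to 74870465 (OGA 13.6, O-GlcNAc 8.73, at SPT5 only). High marks also sat over OGA peaks outside the highest decile. On chromosome 15 at 70391667 to 70391867 the mark reached 14.9 (rank 7) over an OGA peak of 3.88, with summits 296 bp apart. On chromosome 12 the mark reached 12.9 over an OGA peak of 5.36 at 109915225 to 109915421 and 12.7 over one of 2.97 at 132195386 to 132195581. On chromosome 11, at 28131731 to 28131942, it reached 12.8 over an OGA peak of 3.37.

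A few sites showed the shape of the overlap best. The widest OGA peak with the mark spanned 1671 bp on chromosome 6 (33755857 to 33757527, fold enrichment 18.3) and enclosed an O-GlcNAc peak of 423 bp with its summit 42 bp away. The widest O-GlcNAc peak with the enzyme spanned 1653 bp on chromosome 19 (50379749 to 50381401, fold enrichment 4.23) and enclosed an OGA peak of 512 bp with its summit 388 bp away. Of the 7 OGA peaks over 2 O-GlcNAc peaks, 5 were 829 to 1515 bp wide with fold enrichments of 6.85 to 14.6, and the widest lay on chromosome 2 at 232571475 to 232572989. The 14 OGA peaks that shared an O-GlcNAc peak by pairs were all outside the highest decile, with fold enrichments of 2.00 to 4.97. So were 486 of all 604 OGA peaks with both.

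Of the 5 highest peaks of each single kind, 1 enzyme-only peak and 3 mark-only peaks lay at Pol II, beside 32.6% of all enzyme-only and 80.4% of all mark-only peaks. Of the 5 highest enzyme-only peaks, those on chromosome 16 (12416527 to 12417405, fold enrichment 20.9), chromosome 4 (100730536 to 100730962, 17.7) and chromosome 14 (94812273 to 94812963, 17.1) had TRIM28 and neither Pol II nor SPT5, and that on chromosome 15 (89499548 to 89499906, 17.2) had no other target. Only the peak on chromosome 19 at 7598706 to 7599203 (20.6) had Pol II and SPT5, and its nearest O-GlcNAc peak was 1083 bp away. The 5 highest mark-only peaks included 3 on chromosome 19. They lay at 6199405 to 6199984 (18.5), 8617586 to 8618026 (17.8) and 35167873 to 35168607 (17.3), with the nearest OGA peaks 111 kb, 265 kb and 571 kb away. The other two were on chromosome 1 at 228361673 to 228362337 (17.0), with an OGA peak 7966 bp away, and on chromosome 6 at 131949072 to 131949587 (15.1), with the nearest OGA peak 1.94 Mb away. The enzyme-only peaks farthest from any mark, on chromosome 3 at 81873315 to 81873500 and on chromosome 2 at 144941329 to 144941513 and 145001762 to 145002037, were 5.40, 3.66 and 3.60 Mb from the nearest O-GlcNAc peak, and both peaks on chromosome 2 lay at Pol II, SPT5 and TRIM28 and that on chromosome 3 at TRIM28 only, beside TRIM28 at 90.4% of all enzyme-only peaks. At the other end, the OGA peak on chromosome 6 at 15662642 to 15662937 touched an O-GlcNAc peak without overlapping it, and those on chromosome 7 at 100806026 to 100806214 and 6413892 to 6414133 ended 5 and 11 bp from one. These 3 lay at peaks of Pol II, SPT5 and TRIM28, beside 30.8% of all enzyme-only peaks with all 3 factors.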

How the data were processed

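Per the labels, chromatin of BJAB cells was crosslinked with formaldehyde, sonicated and precipitated, and 1 library was sequenced per antibody. The tools named are bcl2fastq 2.17, Trimmomatic 0.30 and Bowtie2 2.1.0, with the hg19 build, per the submitters' processing notes. The peak caller, the control and the threshold were not stated there or in the labels. The authors' files hold 1 line per peak and 1 list per sample, with no pooling stated. The deposited fold enrichment is a ratio of peak to background. Each peak's −log10 p and −log10 q were deposited by the authors, with a minimum −log10 q of 1.33 in the OGA list and 1.31 in the O-GlcNAc list. The deposited score is 10 times the −log10 q value, and it was not used. The summit position within each peak, per the files deposited by the authors, was used for distances. Read depth is unknown.

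Sharing required an overlap of at least 1 bp, and an OGA peak was paired with the O-GlcNAc peak of longest overlap, as with the other lists. Deciles and quintiles were formed by rank. The code was tested on simulated lists with planted overlaps, and its counts of 604 and 604 were the same as those of bedtools 2.31.1. Python 3.11.15, numpy 2.4.6, pandas 2.3.3, scipy 1.17.1, networkx 3.6.1 and matplotlib 3.10.9 were used. No gene annotation or genome of the build of the files was used, so no gene names or sequences are given. The members, the comparisons and the rule for named sites were chosen with earlier results of these data known. The rule takes the 5 highest shared sites by OGA, by O-GlcNAc and by mean rank, the 5 highest peaks of each single kind, the 3 largest rank differences each way, the widest and the multiply paired peaks, and the 3 enzyme-only peaks nearest to and farthest from a mark. The alternatives are named with their effects at the end.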

Additional observations from a re-analysis of the deposited data

Results flagged for a closer look

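Peaks outside chromosomes 1 to 22 entered none of the comparisons above, and they are given here as values. Chromosome X held 58 OGA peaks and 263 O-GlcNAc peaks. The mark overlapped 14 of these OGA peaks (24.1%, Wilson interval 15.0% to 36.5%), and the enzyme overlapped 16 of the O-GlcNAc peaks (6.08%). Chromosome Y held 6 OGA peaks, 3 of them with the mark, and 14 O-GlcNAc peaks. The mitochondrial genome held 5 O-GlcNAc peaks with fold enrichments of 1.32 to 1.33 and 0 OGA peaks.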

How the results depend on the processing

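The 10 main results were recomputed under 80 alternatives in all: 52 were counted as the same, 24 moved outside the interval of the main value and 4 changed sign. Those counted as the same stayed within that interval, except the O-GlcNAc height difference in −log10 p. That difference, 12.1, is in another unit and was compared by direction only. The causes were not tested. The alternatives restricted to peaks with Pol II and those without the highest deciles were chosen after seeing the data. The median OGA fold enrichment with both minus enzyme only, -0.06, became 0.0405 with the O-GlcNAc list shortened by −log10 p to the length of the OGA list, 1.09 with −log10 p as height and 0.20 among peaks with Pol II, and was -0.26 without the highest deciles. The O-GlcNAc difference of 0.28 became -0.47 with the shortened list. That list also gave shares of 10.5% of OGA peaks with the mark and 10.3% of O-GlcNAc peaks with the enzyme, width differences of 49 bp (OGA) and 52 bp (O-GlcNAc) in place of 29 bp and 105.5 bp, a summit distance of 55 bp, and shares within 10 kb of 4.06% (enzyme only) and 3.34% (mark only). A −log10 q of at least 5 gave 5.04% of O-GlcNAc peaks with the enzyme, an OGA width difference of 66 bp, a summit distance of 57 bp and shares within 10 kb of 11.9% and 2.59%. Summits within 250 bp as the rule gave 22.3% of OGA and 6.22% of O-GlcNAc peaks shared, and 15.8% and 4.79% within 10 kb; an overlap of 50% of the shorter peak gave 15.4% of enzyme-only peaks within 10 kb. Among peaks with Pol II the shares were 46.8% of OGA and 7.62% of O-GlcNAc peaks, and the O-GlcNAc width difference was 76.5 bp. Without the highest deciles the OGA width difference was 7 bp (-5 to 17 bp), the summit distance 81 bp and the rank coefficient 0.0756. Of 30 alternatives for shares on chromosome 19 and at the other targets, 19 stayed within the interval and 11 moved, all with a −log10 q of at least 5, where TRIM28 lay at 74.4% of OGA peaks with both, against 82.9% with the enzyme only. No paired analysis was possible because each target had 1 library.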
